A study of Saccharomyces cerevisiae with 1245 samples.

Results

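Subtelomeric regions are described here as the outermost 10 kb at each of the 32 ends of the 16 budding yeast chromosomes, seen through the peaks of the chromatin proteins mapped there. All peaks of the ChIP-exo lists made without heat shock that lay within 10 kb of either end were taken, whatever their target or score. They numbered 1876 of 360480 peaks, or 0.520%, in a stretch that made up 2.65% of the chromosome length used. They came from 311 of 1115 libraries and from 191 of 716 targets. A target is a protein, or a modified form of one, that was immunoprecipitated. ChIP-exo adds an exonuclease to chromatin immunoprecipitation, which digests DNA as far as the bound protein, and the lists give each peak as 1 bp. Peaks of all libraries that followed each other within 100 bp were joined into a place, and the ends held 315 such places.

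The series profiled Saccharomyces cerevisiae proteins across the genome. All 1115 libraries were grown in YPD medium at 25 °C to an OD600 of 0.8 to 1.0 and fixed with 1.0% formaldehyde, per the labels. A TAP tag on the target was used in 1035 libraries, an HA tag in 40, antibodies from the Weil Lab in 23 and other antibodies in 17. Each list is 1 library, and of the 738 combinations of target and antibody 371 had 2 libraries, 3 had 3 and 364 had 1. The labels do not say whether such libraries came from separate cultures. The median list held 79 peaks, the shortest 1 and the longest 7062. Read depth is unknown from the lists and the 15 untagged samples were not used here, so absence of a peak does not show absence of the protein.

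Yeast telomeres are short repeats bound by Rap1, which recruits Sir4 with Sir2 and Sir3, the silencing proteins that bind and deacetylate nucleosomes, and Rif1 and Rif2, which limit telomere length. Inward of the repeats lies an X element, known to hold sites for the origin recognition complex (ORC) and Abf1, and at some ends also Y′ elements, long near-identical copies that encode a helicase. The genes beyond belong to families repeated at many ends. Among them are COS, membrane proteins that act in sorting to the vacuole, and PAU, cell wall proteins of the seripauperin family known for induction at low oxygen.

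Peaks were sparse near the ends. The outermost 10 kb held 5.86 peaks per kb over all lists together, against 30.5 peaks per kb elsewhere, a density 5.21 times lower. Of the 464 targets with a list of at least 20 peaks, 20 had a larger share of their peaks at the ends than the 2.65% of length there, or 4.31% of the targets tested, and 444 had a smaller one. The mean end share over targets was 0.709% ± 3.91 (SD, n = 464 targets), which was lower than the length share by 1.94 percentage points (two-sided sign-flip permutation test over targets, p = 1e-05, the smallest that 100000 permutations can give). Without the stretch out to the innermost Y′ gene, which has no peak in any list, the difference was −1.19 (0.709% against 1.90% of length), and without places found in over 10% of libraries it was −1.02 (1.63% against 2.65%). The median target had 0% of its peaks there. Without Sir2, Sir3 and Sir4 the mean share was 0.425%. Targets that are subunits of the same complex share places, so these p-values treat as separate some values that are not independent.

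Farther inward the density was higher, though not in even steps. From 1 to 6 kb the lists held 2.78 peaks per kb, from 10 to 20 kb 12.9, from 20 to 30 kb 21.2, from 30 to 40 kb 17.1 and from 40 to 50 kb 26.0. Set against the next 10 kb inward in the same libraries, the outermost 10 kb held a mean of 0.709% against 1.46% of a target's peaks (difference −0.750 percentage points, two-sided sign-flip permutation test, p = 1e-05, n = 464 targets). Fewer peaks lay in the outermost stretch for 301 targets and more for 50. That difference did not pass the threshold once places with a peak in over 10% of all libraries were left out (−0.297 percentage points, permutation p = 0.243), nor for 5 kb against the next 5 kb (−0.0492, permutation p = 0.339). The outermost kilobase held 299 peaks, all at ends without a Y′ gene, and 295 of them at right ends, which were set at the outermost gene or peak. Left ends, counted from position 1, had 4. Of those 299 peaks 100 belonged to Sir2, Sir3 or Sir4, or 33.4%. The Sir share of peaks was 26.4% over the outermost 5 kb, 9.94% from 5 to 10 kb, 2.64% from 10 to 20 kb and 0 from 40 to 50 kb.

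**Figure D1:**
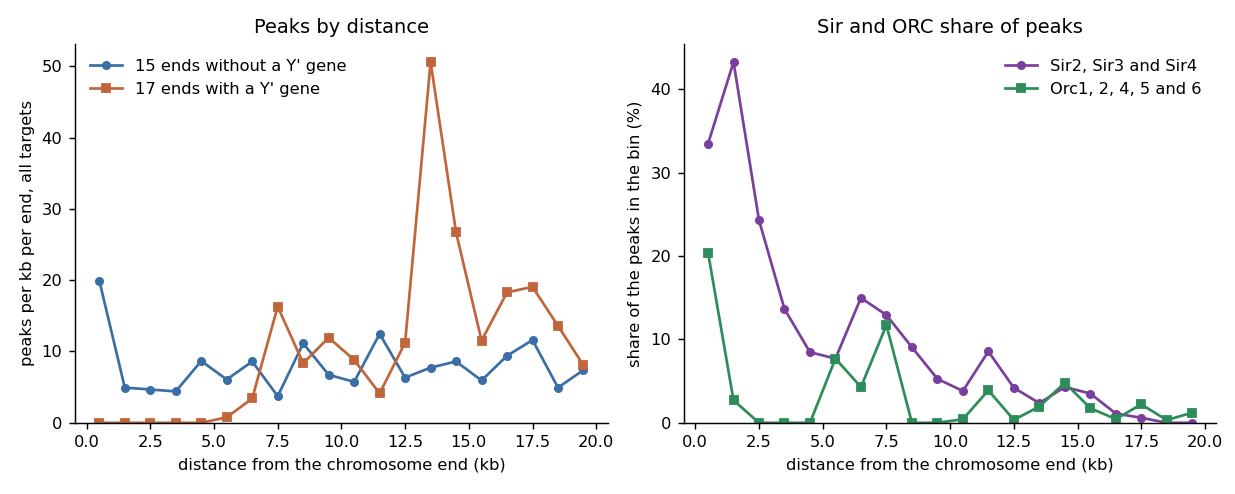
Left, peaks of all lists per kb and per end in 1 kb bins of distance from the chromosome end, for the 15 ends without and the 17 ends with a Y′ gene. Right, the percent of peaks in each bin that belong to Sir2, Sir3 and Sir4 or to 5 ORC subunits; no peak lies within 5 kb at ends with a Y′ gene, and the Sir share falls from 26.4% over the outermost 5 kb to 9.94% from 5 to 10 kb. Right ends are set partly by the outermost peak, which places peaks at distance 0.

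Y′ genes carried no peak in any list. The annotation has 23 of them over 86326 bp, and 0 peaks of 716 targets lay inside, where the density elsewhere would give 2636. How reads that map equally well to several copies were handled is not given in the sources used here. The 17 ends with a Y′ gene held 693 peaks, every one inward of the Y′ genes. At XIIL and XIIR no list had a peak. There the stretch out to the innermost Y′ gene, gaps between Y′ genes included, takes up 9836 and 10000 bp of the window. Per library and end, the 191 targets had 0.103 peaks at Y′ ends and 0.201 at the others (difference −0.0977, two-sided sign-flip permutation test, p = 1e-05, n = 191 targets, lower at Y′ ends for 111 and higher for 80). Measured per kb outside the Y′ genes, the values were 0.0227 and 0.0201 peaks per library and the difference turned to 0.00261 (permutation p = 0.136). With a 20 kb window Y′ ends had more peaks than the others (0.295 against 0.211 peaks per end and library, permutation p = 1e-05).

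The ends differed widely from each other. The median end had peaks of 17 targets, against a median of 69.5 targets in 1166 windows of 10 kb in the interior, and 30 of the 32 ends lay below that median. Most targets were found at VIIIR (86 targets, 230 peaks), XIIIR (85 targets, 172 peaks), IR (66 targets, 223 peaks), IIL (61 targets, 100 peaks), XR (44 targets, 99 peaks) and IIR (42 targets, 125 peaks). Fewest were found at XIIL and XIIR with 0 targets, VIL with 5, IIIL with 8, XVIR with 9 and IXL with 10, a count that XVIL shared. Compared with the mean of the 31 other ends over the 191 targets, 8 ends were above, or 25% of the ends tested, and 17 below, or 53.1% (two-sided sign-flip permutation test over targets, Benjamini-Hochberg adjusted p under 0.05 over 32 ends). The 8 above were VIIIR, XIIIR, IR, IIL, XR, IIR, XIVR and VIR. This test did not leave out Y′ stretches, where no list has a peak. Of the ends below, IVR, VL, VIL, IXL, XL, XIIL, XIIR, XIIIL, XIVL, XVIL and XVIR have a Y′ gene. Of those above, IIL and VIIIR have one. At XIIL and XIIR the Y′ stretch takes up 9836 and 10000 bp of the window, so their call was fixed in advance. The adjusted p was 2.67e-05 for VIIIR, which 45.0% of the 191 targets reached against 12.1% at the mean other end, and 0.0346 for VIR, reached by 18.3%. Several of these calls depended on the settings. IR and XIVR were above in all 13 alternatives run and VIR in 8, since its call was lost without replicate 1 (adjusted p = 0.189, permutation) and without replicate 2 (adjusted p = 0.0917, permutation). With a 5 kb window IIL and VIIIR turned to below, because none of their peaks lies that near the end. With a 20 kb window IIIL and VL turned from below to above. Of the ends above, IIL, IIR and XR lost their call in that window. XR also lost it with right ends moved outward by 1 kb. Without the place with most targets at each end, IIL and XIIIR lost theirs (adjusted p = 0.511 and 0.195, permutation).

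**Figure D2:**
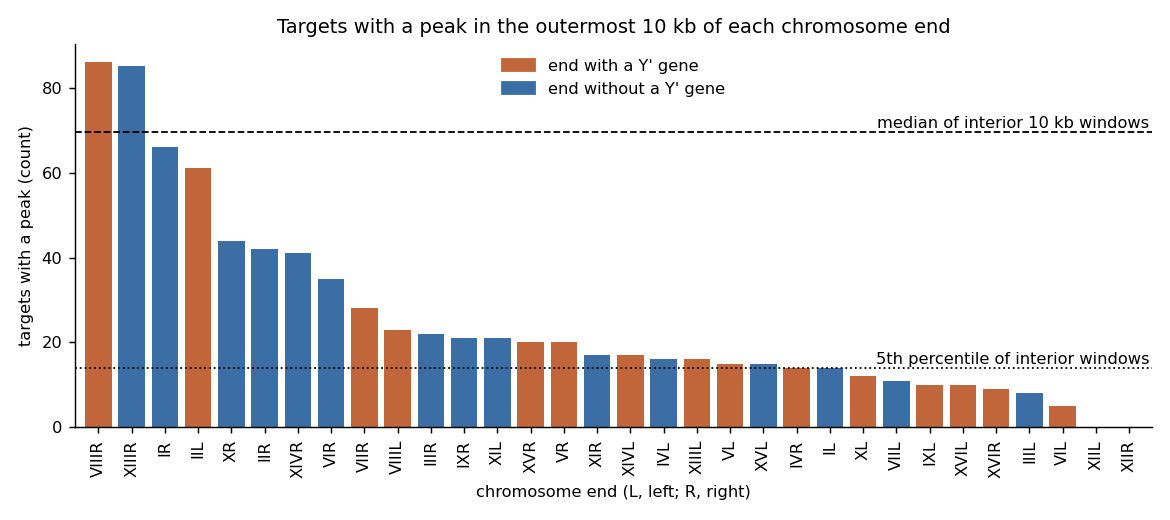
Number of targets, of 716, with at least 1 peak in the outermost 10 kb of each chromosome end, orange with and blue without a Y′ gene. The dashed line is the median (69.5) and the dotted line the 5th percentile (14) of interior windows of the same size; VIIIR and XIIIR lie above the median.

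At several of the rich ends 1 place carried most of the targets. The place upstream of FET4 held 70 of the 85 targets of XIIIR, and 19 targets remained at that end without it. The place at IMD2 held 65 of the 86 targets of VIIIR, and a tRNA gene 51 of the 61 of IIL, which left 44 and 17. IR was unlike these, since its top place held 20 of 66 targets and 62 remained without it. Right and left ends also differed, with 1393 peaks at the 16 right ends and 483 at the 16 left ones. Right ends were set at the last annotated gene or peak, whichever was farther out, since chromosome lengths were not used here, so distances at right ends are lower bounds. No peak lay within 934 bp of a left end.

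Silencing proteins led the targets by share. The 2 Sir3 libraries had 53 and 83 end peaks in lists of 105 and 251, or 50.5% and 33.1%. The 2 Sir4 libraries had 26 and 61 in lists of 52 and 124, or 50% and 49.2%. The 2 Sir2 libraries had 22 and 47 in lists of 60 and 101, or 36.7% and 46.5%. All 6 Sir libraries thus stood far above the 2.65% of length. Sir3 was found at 26 ends and Sir4 at 24, and any of the 3 at 29. They shared places, since all 3 had a peak at 35 places at 17 ends. Of the 50 Sir2 places 72% held Sir3 and 78% Sir4, while 36.4% of the 99 Sir3 places held Sir2.

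Asf2, known from overexpression as an anti-silencing protein, followed with 26 and 29 end peaks in its 2 libraries, 29.2% and 22.7% of their lists. It shared 61.1% of its 36 places with Sir2 and 69.4% with Sir3. Rif1 had 17 of 95 peaks in 1 library and 3 of 29 in the other, 17.9% and 10.3%. Rap1, which binds the telomere repeats themselves, had 0 end peaks of 323 and of 373 in its TAP libraries and 10 of 1404 in the Weil Lab antibody library. Rif2 had 3 and 0, Yku70, the end-binding Ku subunit, had 3 in its only library, and Yku80 and Tel2 had 0. Of the 9 listed silencing and telomere targets, 7 had an end peak, against 26.7% of all targets with a list, and their median end share was 7.60% against 0 over all targets.

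The Sir peaks were unevenly spread. IIIL had 68 peaks and 58 of them were Sir peaks, although only 8 targets reached that end. In the paired libraries the IIIL count was 11 and 15 for Sir3, 2 and 14 for Sir4, and 1 and 15 for Sir2, so Sir3 was high in both libraries and the other 2 proteins in 1 each. The silent mating genes HMLALPHA2 and HMLALPHA1, kept off by the Sir proteins, have their coding starts 13017 and 13281 bp from that end, just beyond the window. XIR came next with 39 Sir peaks of 64. Its library counts were 8 and 13 for Sir3, 2 and 8 for Sir4, and 2 and 6 for Sir2. IR had 18 Sir peaks, IVR and XIVR 16 each and IXR 15.

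**Figure D3:**
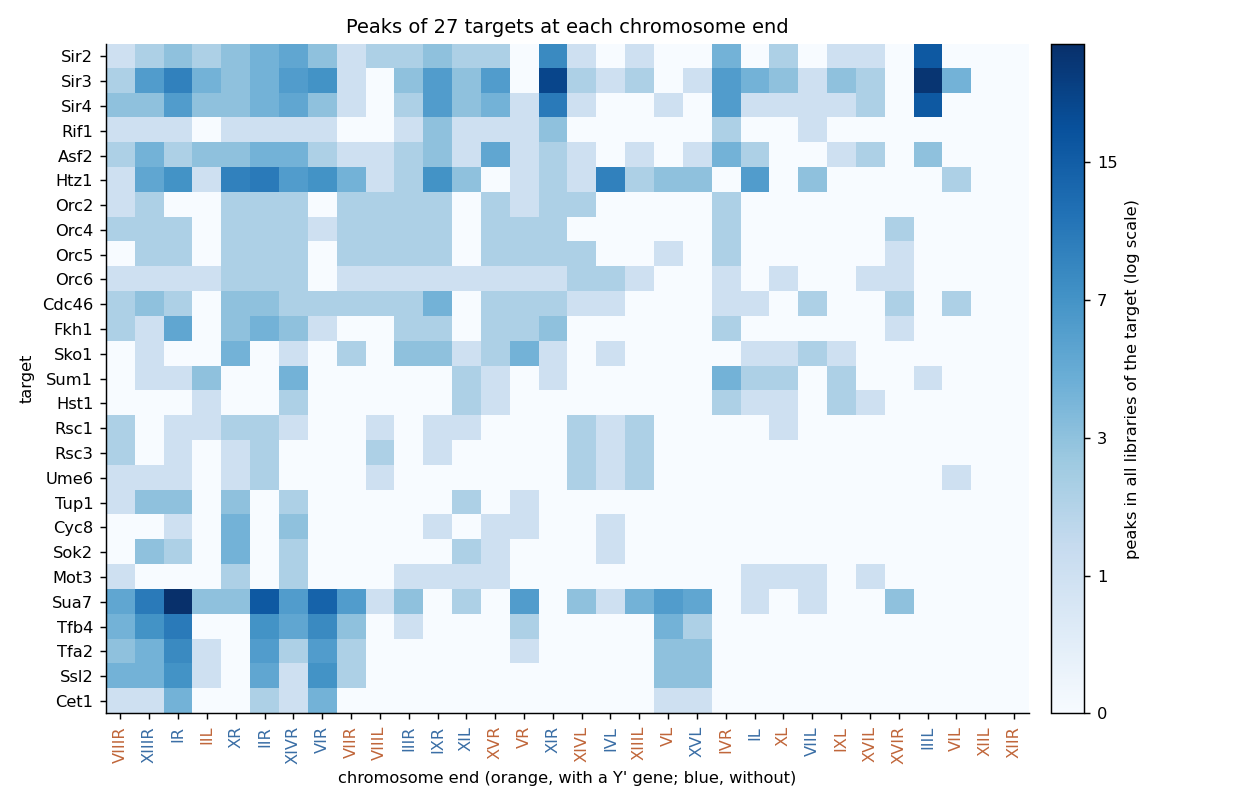
Peaks of 27 targets, summed over the libraries of each target, at the 32 chromosome ends ordered by their number of targets; the color scale is logarithmic. Sir peaks are densest at IIIL and XIR, and Sir3 reaches 26 ends, Sua7 21, and Tfb4 and Tfa2 11.

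A recurrent composition was an ORC place. ORC marks replication origins and recruits the Mcm helicase, of which Cdc46 is the Mcm5 subunit. Places with at least 2 of the 5 ORC subunits with a list were counted after their values were seen. They occurred at 16 ends, 1 place at each, and held 328 peaks or 17.5% of all end peaks. At the 8 such ends without a Y′ gene they lay 20 to 450 bp from the end as set here (median 68.5 bp). All 8 are right ends. At IR, IIR, IXR, XR, XIR and XIIIR the end was set at the outermost peak of the ORC place itself. The short distances there follow from that setting and are not measured positions. At the 8 with a Y′ gene the ORC places lay 5350 to 7745 bp from the end. That is 1274 to 4434 bp inward of the innermost Y′ gene (median 1860 bp). Right ends had an ORC place in 14 of 16 cases and left ends, VIIIL and XIVL, in 2 of 16. At XIIR the place lay 13683 bp from the end and 1740 bp inward of its Y′ gene, outside the window.

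Several partners recurred at most of these 16 places, and the recurrence of ORC subunits is partly set by the rule that defined them. Cdc46 and Orc6 had a peak at all 16, Orc4 and Orc5 at 15 and Orc2 at 14. Sir4, Asf2 and Fkh1, a forkhead factor known to act on origin timing, had a peak at 13, and Sir2, Sir3 and Rif1 at 12. All 3 Sir proteins met at 12 of the 16. The places at VIIIL, XIVL and XVIR had no Sir, Asf2 or Rif1 peak, and that at VR had only Sir4 of the Sir proteins. At the 269 places with at least 2 ORC subunits farther than 20 kb from any end, 88.8% had Cdc46 and 45.7% had Fkh1, but 5.20% had Sir4, 3.35% Sir2, 16.4% Sir3, 13.8% Asf2 and 5.58% Rif1. Abf1, which has a site in the X element, had a peak at 1 of the 16 places. Per library, Orc2 had 13 and 13 end peaks, Orc4 16 and 15, Orc5 14 and 16, and Cdc46 18 and 25, so these pairs of libraries were close. Orc6 had 20 and 7, and Orc1 had 3 and 1. The fullest ORC place, at XV:1083597-1083896 (sacCer3) with YOR394C-A as the nearest gene, had 18 targets in 28 libraries, among them 5 ORC subunits, the 3 Sir proteins, Sum1 and Hst1. The ORC place at X:744618-744876, upstream of COS5, had 16 targets, with Rif1, Rif2 and Yku70 among them.

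Promoters of genes near the ends had few targets. A promoter here runs from 700 bp before a coding start to 100 bp after it. Of the 115 protein-coding genes that start within 10 kb of an end, 66 had a peak of at least 1 target and 16 had peaks of at least 10, against 97% and 64.1% of all 6002 nuclear protein-coding genes. The median was 1 target per promoter within 10 kb, 3 for the 125 genes from 10 to 20 kb and 14 for all genes farther than 10 kb. A target reached 2.39% of end promoters and 10.4% of the others on average (difference −8.03 percentage points, two-sided sign-flip permutation test, p = 1e-05, n = 191 targets, lower at ends for 166). Of the 115 end genes 20 are Y′ genes, and none of these had a promoter peak. Without the Y′ genes the difference was −7.53 percentage points (2.89% against 10.4%, permutation p = 1e-05).

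COS promoters had more targets than those of other genes at the ends. All 10 COS genes there had a promoter peak, with a median of 12 targets, and 6 of them had at least 10. COS2 had 20 targets, COS6 18, and COS1, COS3 and COS5 14 each, while COS4 and COS12 had 3. A target reached 5.71% of COS promoters and 2.07% of the 105 other end promoters (difference 3.63 percentage points, two-sided sign-flip permutation test, p = 0.000230, n = 191 targets). The mean was raised by a minority, since 36 targets were higher at COS promoters and 92 lower. Leaving the Y′ genes out of the comparison gave 3.14 percentage points (permutation p = 0.00169), and genes within 20 kb gave 0.852 (permutation p = 0.0790). Without replicate 1 it was 2.12 (permutation p = 0.0298). The COS and PAU genes are families of similar copies, so peaks at different members may not be separate observations.

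**Figure D4:**
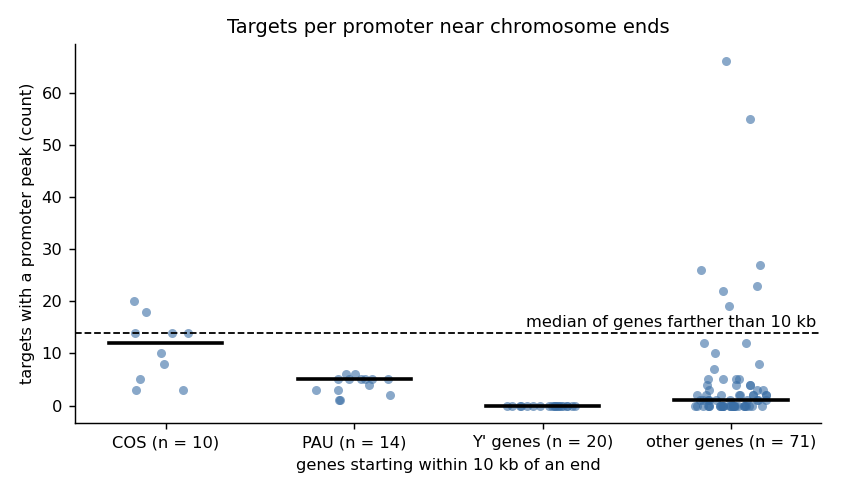
Targets with a promoter peak for each protein-coding gene that starts within 10 kb of a chromosome end, by gene family; each point is 1 gene and the bar is the median. COS genes have a median of 12 and PAU genes of 5, all Y′ genes are at 0, and the dashed line is the median of 14 for genes farther than 10 kb.

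The targets of COS promoters and their positions recurred from gene to gene. Sua7, the general factor TFIIB, had a peak at 9 of the 10, at a median of −42 bp from the coding start. These were 21 peaks over its 3 libraries, with only 1 peak each at COS7, COS8 and COS12. Bur6 and Ydr1 form NC2, which binds TBP and can repress or activate. Bur6 was at 7 COS promoters in its 3 libraries (median −67.5 bp) and Ydr1 at 5 in its library with a Weil Lab antibody (median −43 bp). Ydr1 is another name of Ncb2, and of the 2 TAP libraries labelled Ncb2 only 1 had COS promoter peaks, at 2 genes. The names are counted as separate targets throughout. Ume6, the DNA-binding repressor of meiotic genes, was at 7, all within −97 to −89 bp, with 7 peaks in 1 library and 3 in the other. Rsc3, a DNA-binding subunit of the RSC remodeler, was at 6 (−105 to −85 bp), and Rsc1 of the same complex at the same 6 genes (−130 to −67 bp). Among all protein-coding genes that start farther than 10 kb from an end, Ume6 reached 5.67% of promoters, Rsc3 3.53% and Sua7 88.4%. Ume6 and Rsc3 thus sat at COS promoters within a window of 20 bp or less per protein. Other general factors were at fewer COS promoters than Sua7, with TFA1 at 4, Tfb4, Tfa2 and Spt15 at 2 each, and Ssl2 and Tfg1 at 1 each. In that order these 6 reached 65.1%, 73.3%, 76.8%, 30.9%, 65.9% and 67.7% of promoters farther than 10 kb from an end. Rpb3 and Rpo21, subunits of RNA polymerase II, had a peak at 0 of the 10, and at 15.5% and 4.96% of promoters farther than 10 kb from an end. The histone variant Htz1 was at 7 COS promoters, with a median of 93 bp, in 1 of its 2 libraries. That library had 83 end peaks in a list of 5546, and the other had 12 in a list of 1760.

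PAU promoters held other proteins. All 14 PAU genes at the ends had a promoter peak, but the median was 5 targets and none had 10. A target reached 2.09% of PAU promoters and 2.43% of the 101 other end promoters (difference −0.337 percentage points, two-sided sign-flip permutation test, p = 0.668, n = 191 targets, higher at PAU for 8). The 9 targets found there were Cin5 at 10 promoters, Sir3 at 9, Mot3, Rap1 and Sko1 at 8, Mcm1 at 6, Yap7 at 3, and Htz1 and Sir4 at 2. Each of the 9 had these peaks in 1 of its libraries only. None of the general factors Sua7, Tfb4, TFA1, Tfa2, Spt15, Ssl2 and Tfg1 had a peak at any of the 14, against 88.4% of promoters farther than 10 kb for Sua7 and 30.9% for Spt15. Tup1 and Cyc8 had none either, but reach only 6.29% and 5.18% of those promoters. At 71 end genes of no listed family Sua7 was found at 22.5%.

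Upstream of PAU genes the peaks fell at recurrent positions. Sko1, a bZIP repressor of the stress response, lay at −592 to −585 bp at its 8 promoters. Cin5, another bZIP factor, had a median of −587 bp and Yap7, of the same family, one of −572 bp. Rap1 had a median of −328.5 bp, Mot3, a zinc finger repressor of hypoxic genes, one of −356.5 bp and Mcm1, a MADS box factor, one of −374 bp. These values rest on few libraries. Rap1 has 3 libraries and each of the others 2. Cin5 had 16 end peaks in a list of 821 in that library and 1 in a list of 69 in the other, and Mcm1 6 in a list of 730 and 0 in a list of 96. At the 10 PAU genes farther than 10 kb from an end, Cin5 and Mot3 each had a peak at 3 promoters and Sko1 and Rap1 at 2.

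The downstream side of the PAU genes held other targets again, and it faced the chromosome end at every PAU gene within 10 kb. Among peaks for which a PAU gene was the nearest gene, Sum1, a repressor of meiotic genes, had 19 at 9 genes, and 18 of these lay downstream of the coding sequence, with a median of 714 bp from the coding start. Hst1, the deacetylase that works with Sum1, had 12 at 8 genes, all downstream, at a median of 716 bp. Sum1 had 17 end peaks in a list of 423 in 1 library and 7 in a list of 77 in the other, and Hst1 had 9 of 915 and 4 of 49. Asf2 had 20 such peaks at 9 genes (14 downstream), Sir2 17 at 9 genes (14 downstream), and Sir4 24 at 10 genes (13 downstream). Sir3 had the most, 33 at 10 genes, and was more evenly spread, with 13 downstream, 12 inside and 8 upstream. Sir2, Sir3 and Sir4 made up 36.3% of the 204 peaks nearest to PAU genes and 14.8% of the 263 nearest to COS genes. At COS genes all 11 Sir2 peaks lay upstream, at a median of −479 bp, and 8 of 10 Orc2 peaks, at a median of −782.5 bp. The upstream side faces the chromosome end at all of these COS genes but COS10. These upstream COS peaks and the downstream PAU peaks thus lay on the same side, toward the end.

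**Figure D5:**
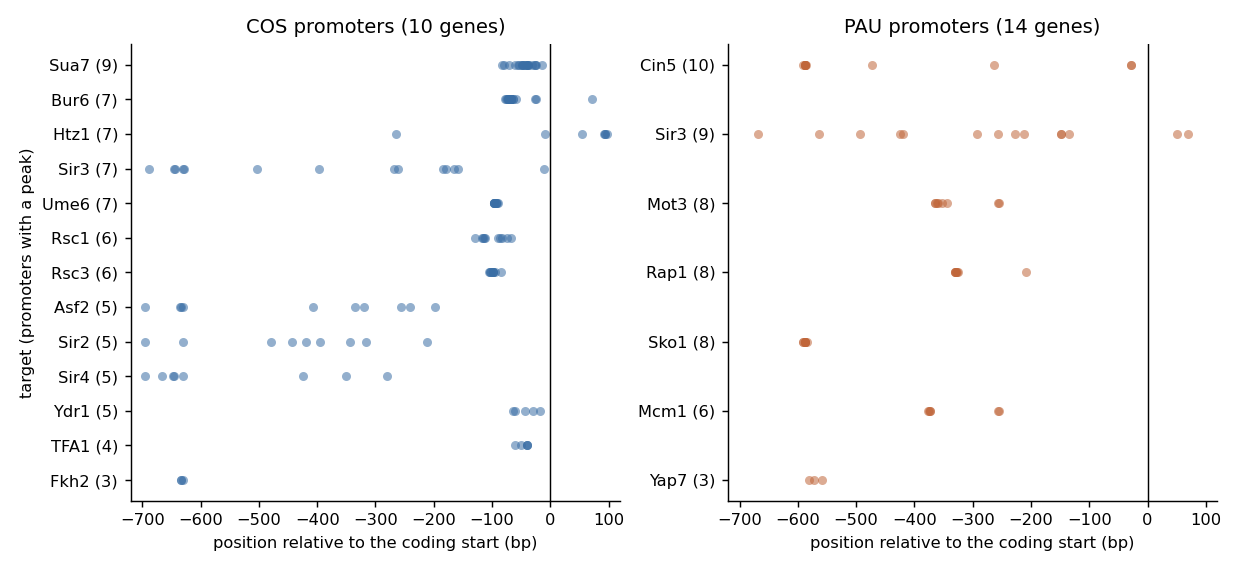
Peaks in the promoters of the 10 COS and 14 PAU genes within 10 kb of an end, by position relative to the coding start, for targets with a peak at 3 or more of them (number in parentheses); each point is 1 peak of 1 library. Sua7, Bur6, Ume6, Rsc1 and Rsc3 lie within 130 bp of COS starts, while Cin5, Sko1, Mot3, Rap1 and Mcm1 mostly lie beyond 200 bp upstream of PAU starts.

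The genes with most targets nearest to them belonged to neither family. They were IMD2 with 75 targets, FET4 with 71, PHO11 and the tRNA gene YNCB0001W with 58 each, and PHO12 with 34. IRC7, a beta-lyase gene, had 27, SOR1 24 and the maltase gene MAL32 19. COS2 had 30, COS6 27 and COS5 23. PAU10 led its family with 14 targets, before PAU16 and PAU19 with 13 and PAU1 with 12.

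The place with most targets lay upstream of FET4, the low-affinity iron transporter gene at XIII:912880-914538 on the minus strand. It spanned XIII:914459-915541 and had peaks of 70 targets in 103 libraries, or 9.24% of libraries. Of the general machinery it held 9 of 10 TFIIH subunits with a list, 9 of 14 TFIID subunits and shared TAFs, and 6 of 13 SAGA subunits. It also held 9 of 17 targets of a list of repressors and the Tup1-Cyc8 corepressor, among them Tup1, Rox1, Mig1, Nrg1, Sfl1, Phd1, Sok2 and Cin5. The iron regulator Rcs1, also called Aft1, and Mac1, known from copper uptake genes, had a peak there as well.

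IMD2 encodes inosine monophosphate dehydrogenase of guanine nucleotide synthesis and lies at VIII:554396-555967 on the plus strand. Its place at VIII:554009-554481 had 65 targets in 105 libraries. It held 9 TFIIH subunits, 9 of 10 RNA polymerase II targets, 9 of 17 elongation targets, and 12 of 16 targets of RNA 3′ end formation, capping and export, Nrd1, Sen1 and Pcf11 included. The list of repressors had 1 of its 17 there, Mot3. FET4 and IMD2 thus had the same number of TFIIH subunits and of other general factors, 9 and 6 at each, and differed in repressors, SAGA, elongation and RNA 3′ end targets. The class lists were drawn up after the places had been seen.

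The tRNA gene at II:9583-9666 had a place at II:9554-9650 with 51 targets. It held 18 of 20 targets of RNA polymerase III, TFIIIB and TFIIIC, no subunit of TFIIH, and 4 Sir peaks. Both metabolic enzymes with an end peak, Acs2 and Lys20, had theirs at this place, 1 peak each. Of the 31 enzymes with a list 6.45% had an end peak, against 26.7% of all targets, but their median list held 10 peaks against 54.25 over all targets.

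Acid phosphatase genes PHO11 at IR and PHO12 at VIIIR are close copies. PHO11 had 26 promoter targets and PHO12 27, and 24 were shared, 92.3% of the first list and 88.9% of the second. The place at PHO11, I:225351-225405, had 20 targets, with 9 TFIIH subunits and 6 other general factors, and a further place at I:224872-224996 had 16. Over the PHO12 coding sequence and its 3′ side, at VIII:552697-553641, lay 28 targets of a different kind, with 8 elongation, 10 RNA 3′ end and export and 5 polymerase targets, and no TFIIH. PHO11 had a similar place within its coding sequence, at I:225624-226422, with 14 targets. Of these, 7 were elongation, 3 polymerase and 2 RNA 3′ end and export targets, and none was a TFIIH subunit.

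The sorbitol dehydrogenase genes SOR1 at XR and SOR2 at IVL form another such pair. SOR1 had 22 promoter targets and SOR2 23, with all 22 in common, Dat1 being the 23rd. The promoters of SOR2 and PHO12 extend past 10 kb from the end, so some of their peaks are not among the end peaks. At the SOR1 place, X:735545-735856, 14 of the 22 targets were from the list of repressors and corepressor: Tup1, Cyc8, Nrg1, Nrg2, Mig1, Mig2, Sfl1, Phd1, Sok2, Rox1, Mot3, Sut1, Cup9 and Gis1. No general transcription factor, polymerase, Sir or ORC target was found at that place. The promoter of MAN2, a mannitol dehydrogenase gene at XIVR, had 10 targets, and 9 of them, all but Cmr3, belong to the same list. All 9 corepressor partners fixed for the analysis (Tup1, Cyc8, Nrg1, Nrg2, Sko1, Mig1, Sfl1, Phd1 and Sok2) had an end peak, against 26.7% of all targets, with a median end share of 1.70% against 0. Their lists were also longer, with a median of 232 peaks against 54.25. Tup1 had 7 and 8 end peaks in its 2 libraries, Cyc8 3 and 9, and Sok2 9 and 6. Sko1 had the highest counts of the list, with 9 of 136 and 19 of 328 peaks. Other pairs of copies shared less or had few targets. GEX1 and GEX2 had 3 and 1 promoter targets with 1 shared, and VBA3 and VBA5 had 3 and 0. COS5 and COS2 had 14 and 20 with 12 shared. MPH2 and MPH3 shared their only 1, and ERR1 shared its 2 with both ERR2 and ERR3. The pairs of copies and MAN2 were picked after their values were seen.

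Further rich places had several compositions. Near MAL32 (II:807045-807394, 17 targets) and IRC7 (VI:263398-263572, 17 targets) general factors prevailed, with 8 TFIIH subunits and 5 other general factors at each. The median position of the MAL32 place lay 1981 bp from the coding start, past the 3′ end of the gene. The MAL32 promoter had only 5 targets. The IRC7 place lay upstream, with its median position beyond the 700 bp promoter. A nearer IRC7 place, VI:264109-264136, had 14 targets, again with 8 TFIIH subunits and 5 other general factors. COS6 had a promoter place of 15 targets with 5 TFIIH subunits and 6 other general factors. ORC places followed, with 15 targets near COS2 and 14 near PAU10. A place at VIII:552239-552566 within PHO12 had 15 targets, 7 of them elongation and 4 polymerase targets, and one at II:811503-811798 upstream of COS2 had 13, with 4 RSC subunits and the 3 Sir proteins. Places with at least 10 targets were 11.7% of end places and 29.7% of the 13269 places elsewhere, and places with only 1 target were 48.3% and 37.0%.

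General transcription factors had many end peaks in long lists. Sua7 had 40, 52 and 35 end peaks in its 3 libraries, but 0.657%, 0.736% and 0.622% of lists of 6090, 7062 and 5626 peaks. Tfb4 had 25 and 28, Ssl2 20 and 17, Tfa2 27 and 12, and Cet1, the RNA triphosphatase of mRNA capping, 15 in its only library, each a share below the 2.65% of length. Peaks of Tfb4 and Tfa2 lay at 11 ends, of Ssl2 at 10 and of Cet1 at 8, fewer than those of the Sir proteins. Sua7 was at 21 ends, near the 22 of Sir2.

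Listed factors tied to silencing boundaries and listed deacetylases had an end peak about as often as any target. Sir2 was not on the deacetylase list. Of the 8 boundary targets with a list 37.5% had one, against 26.7% of all targets, with 95 peaks for Htz1 and 1 each for Set1 and Bdf1. Of 11 targets on the deacetylase list 27.3% had one, namely Ume6, Sum1 and Hst1, while Hda1 with 739 peaks and Hos2 with 656 had 0. The mean end share was 6.55% for Sum1 and 4.57% for Hst1, above the 2.65% of length, and 2.12% for Ume6. Some targets on both lists had few peaks in all, such as Sas4 with 1 and Rfm1 with 3. The median list held 73 peaks for boundary targets and 57.5 for deacetylases, against 54.25 over all targets. Among insulator proteins Tbf1 had 2 and 1, Reb1 0 and 1, and Vid22 0. Of the hypoxic regulators Mot3, Rox1 and Sut1 had end peaks, and Ecm22, Hap1 and Upc2 had 0.

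On average over groups, the share of peaks found again in the other library did not pass the test between ends and elsewhere. The share with a match within 100 bp was 47.5% at ends and 47.6% elsewhere (difference −0.0670 percentage points, SD 21.9 over groups, two-sided sign-flip permutation test, p = 0.978, n = 76 groups). The silencing proteins had lower values at ends than elsewhere, with 23.2% against 55.4% for Sir2, 20.7% against 40.4% for Sir4, 24.3% against 29.1% for Sir3 and 10% against 35.6% for Rif1. Htz1 had 23.2% against 46.3%, while Orc2 had 92.3% against 79.8% and Asf2 40% against 28.4%. These groups were named after their values were seen and were not tested singly. The rank of their scores within a library, where 50 is the middle, was 51.2 ± 12.7 (SD, n = 80 targets; permutation p = 0.397).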

How the data were processed

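The deposited peak lists give 1 bp positions with a score, a whole number from 66 to 1000, per the file contents; the definition of the score is not given in the sources used here, so the authors' scores were used only as ranks within a library. The submitters' processing notes name BWA, Picard and SAMtools without versions and the sacCer3 build. Genes came from the RefSeq R64 table, and strand was read from the W or C of systematic names. A left end was position 1, and a right end the last gene or peak. Genome sequence was not used here. Shares needed lists of at least 20 peaks. Tests flipped signs over targets or groups with 100000 resamples (numpy 2.4.6, pandas 2.3.3, Python 3.11.15) and were tested on simulated peaks.

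Named items are the 15 targets with most end peaks, the 15 with the largest share among those with a mean of at least 5 end peaks, 6 ends from the top and 6 from the bottom, 15 nearest genes, 5 genes of each family and 12 places; others were named after their values were seen. Members and lists were chosen with earlier results of these data known. 1 sample with conflicting target labels was left ungrouped. Target names are as labelled.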

Additional observations from a re-analysis of the deposited data

Results flagged for a closer look

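No group had 4 or more libraries, so no library was tested for standing apart from its group. End peaks also occurred in lists outside the comparisons, above the limit that a count of 0 allows (3 counts of the total). The 22 heat-shock ChIP-exo libraries had 120 end peaks of 15742, or 0.762%, where a count of 0 would allow up to 0.0191%. Of these, Rsc9 had 37, Rsc1 and Rsc3 20 each, and XIIIR led the ends with 18. The MNase-ChIP-seq libraries had 23 of 11999, or 0.192%, against 0.0250%. The list of the sample whose labels name 2 targets had 4 of 1239, or 0.323%, against 0.242%. These limits cover counting error only, and none of these lists was compared with the others. Any count over 3 passes such a limit, so the flag shows that end peaks were present and not that their number was unusual.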

How the results depend on the processing

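The 9 tested results were recomputed under 129 combinations of result and alternative, 18 of them added after seeing the data, and 112 were counted as unchanged. Where a p-value was computed, unchanged means the same direction and the same side of the threshold. For the number of differing ends it means only a similar number. For the end share of all peaks pooled it means the same direction and a change below the SD over targets. The end share (−3.14 to −0.997) and the promoter difference of end genes (−11.9 to −4.44) were unchanged in all that were run. The number of differing ends ran from 21 to 25, but single ends lost, gained or reversed their call. With a 20 kb window the COS difference was 0.852 (permutation p = 0.0790) and the PAU difference −0.981 (permutation p = 0.00868). In that window the repeat difference was −6.28 (p = 3e-05 by permutation), the score rank −2.12 (permutation p = 0.00958) and the Y′ difference 0.0841 (permutation p = 1e-05). With 5 kb the next-stretch difference was −0.0492, and PAU and repeat differences turned to 0.305 and 1.87. Without places in over 10% of libraries the next-stretch difference was −0.297. The PAU difference was −0.938 with 300 bp promoters and 0.568 by nearest gene. It was −1.92 without the 6 libraries of Cin5, Mot3, Rap1, Sko1, Mcm1 and Yap7 that have PAU promoter peaks, a direction which that choice largely fixes. The Sir3, Sir4 and Htz1 libraries with such peaks were kept. The repeat difference was 3.12 with 50 bp matches and 2.48 for later library numbers. It ran from −9.82 to 19.3 when 1 replicate number was left out, which left as few as 1 group. Moving right ends out by 1 kb turned the score rank to −1.02, and counting per kb outside Y′ genes turned the Y′ difference to 0.00261. The causes were not tested, and the PAU, repeat and score results did not pass the threshold as reported. Leaving out replicate 1 ended the calls of VIR and XIR and added XIL, and leaving out replicate 2 ended those of VIR, XIIIL and XIVL. For the other 7 results, leaving out a replicate number moved no value across the threshold. No paired analysis was possible because equal replicate numbers of different targets mark no shared sample, so a replicate block has no meaning here. The tests already set stretches of the same libraries against each other. Read depth is unknown, so absence of a peak limits every count.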

Other observations

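Left and right ends without a Y′ gene differed beyond the ORC places. The 6 left ones had 196 peaks of 45 targets and the 9 right ones 987 peaks of 137 targets. In the outermost kilobase the left ones had 4 peaks and the right ones 295. Any ORC peak was found at 3 of the 6 and at 9 of the 9. Sir peaks were found at all 15, with 75 at the left ones and 140 at the right ones. Among ends with a Y′ gene, the 10 left ones had 287 peaks and the 7 right ones 406. These counts compare ends, were made after the values were seen and were not tested, and right ends are set partly by the outermost peak itself.

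Beyond the window on the left arm of chromosome III, from 10 to 16 kb from the end, Sir3 had 30 peaks, Sir4 27, Sir2 24 and Asf2 22. ORC places with at least 2 subunits lay 11263 and 14696 bp from that end, to either side of HMLALPHA2 and HMLALPHA1.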
